A study of Mus musculus with 21 samples.

Results

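Laminins and integrins tie cells to the basement membrane, and the expression of their subunit genes was examined in hearts with and without *Notch3*. The genes were chosen by symbol, as those named Lama, Lamb or Lamc with a number, those starting with Itga and those starting with Itgb and a number. In all 41 genes matched, of 46517 that were counted. They were 11 laminin chain genes (5 alpha, 3 beta and 3 gamma), 27 integrin subunit genes (18 alpha and 9 beta) and 3 genes that carry an integrin symbol but encode no subunit, *Itgb1bp1*, *Itgb1bp2* and *Itgb3bp*. Bulk RNA-sequencing, which measures the RNA of a whole tissue piece, had been done on left ventricle from 4 control (Notch3+/+) and 3 Notch3-/- C57BL/6J mice aged 10 to 14 months. Each mouse gave 3 technical libraries, 21 together. The deletion was not limited to a cell type, and the sex of each mouse was not given in the sources used here. Per library 464390 to 2134368 reads were counted in control and 979804 to 2427783 in Notch3-/- mice. Summing the libraries of a mouse gave 3091461, 4638786, 4208205 and 3046326 reads for the controls, numbered 1 to 4, and 3828763, 5167869 and 5086740 for the Notch3-/- mice, numbered 1 to 3; values per mouse follow this order. The mouse labels begin with X for control mice 1 and 2 and with k for the remaining 5 mice, so X-labelled mice were of 1 genotype only.

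A laminin is a trimer of an alpha, a beta and a gamma chain, secreted by the cells that build a basement membrane, the sheet that surrounds cardiomyocytes, smooth muscle cells and capillaries. An integrin is a dimer of an alpha and a beta subunit that spans the plasma membrane and binds laminin, collagen, fibronectin or receptors of other cells. In cardiac muscle the dimer of the products of *Itga7* and *Itgb1* is a known laminin receptor, and loss of the chain encoded by *Lama2* causes a muscular dystrophy. *Notch3* is a receptor of vascular smooth muscle cells and pericytes, cells that lie within the vascular basement membrane.

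*Notch3* itself, the targeted gene, was counted 174, 200, 245 and 185 times in controls and 22, 36 and 25 times in Notch3-/- mice. After TMM normalization this was 54.7 ± 8.62 CPM (counts scaled to the same normalized total in every mouse; SD, n = 4) against 6.10 ± 1.42 (SD, n = 3), a log2 fold change of -3.16 (SE 0.23, edgeR FDR 0.00173). The libraries thus followed their labels.

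No laminin or integrin subunit gene passed the test for a genotype difference. Genotypes were compared over all genes with edgeR's quasi-likelihood test, and a gene was called at a Benjamini-Hochberg false discovery rate (FDR) below 0.05 with at least a 1.5-fold difference. Of the 41 genes 34 passed the filter on low counts and were tested. In edgeR 0 of the 34 were called, against 1 of the 14324 genes tested (0.00698%), and 0 had an unadjusted p below 0.05, against 10.4% of all genes. In 0 of the 34 were the mice of the genotypes without overlap, against 8.53% of all genes. In DESeq2, which called 3.43% of the genes to which it gave an adjusted p, 0 of the genes were called and 1, *Itgae*, had an unadjusted p below 0.05. The FDR of the 34 genes lay between 0.503 and 0.990 in edgeR. The median log2 fold change was -0.054 over the 9 laminin genes tested, 0.17 over the 22 integrin genes and -0.0028 over all genes tested. Of the laminin genes 2 had a log2 fold change above 0 and 7 below, and of the integrin genes 15 above and 7 below. The interval says more than the missing call where counts were high. For 15 of the 34 genes the 95% interval lay within a 1.5-fold change in either direction, and for 23 within a 2-fold change.

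**Figure D1:**
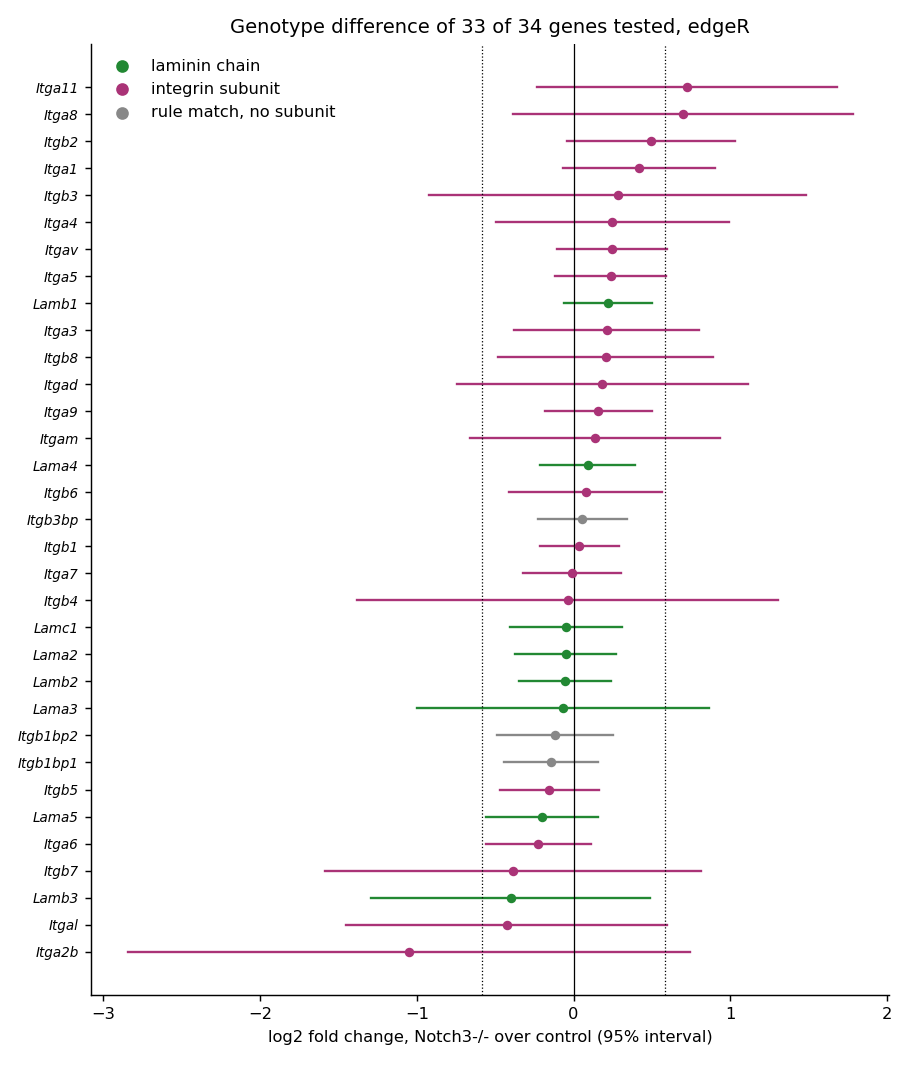
Log2 fold change of Notch3-/- over control mice for 33 of the 34 genes tested, with 95% intervals from edgeR (7 mice); dotted lines mark a 1.5-fold change. Every interval crosses 0, and the intervals are narrow for genes with high counts such as Itgb1 and Lamb2 and wide for Itga2b.

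The genes differed far more among themselves than between genotypes. To compare genes, CPM were divided by the length of all annotated exons in kb. By this level in control mice the order began with *Itgb1bp2*, *Lamb2*, *Itgb1*, *Itga7* and *Lama5*. *Itgb1bp2*, which encodes melusin, a muscle protein that binds the tail of integrin beta-1, had 141 ± 13.6 CPM per kb (SD, n = 4), and its control mice overlapped with those of *Lamb2*. *Lamb2*, *Itgb1*, *Itga7* and *Lama5* followed one another with no overlap among control mice, at 115 ± 16.6, 75.7 ± 7.78, 50.3 ± 5.49 and 31.02 ± 6.43 CPM per kb. With the length of the longest coding transcript instead, an alternative chosen after the data were seen, *Itga7* ranked above *Itgb1* and the other 3 kept their places. By exon length the next places were held by *Itga5*, *Itgb5*, *Itgb3bp*, *Lamb1*, *Itgb1bp1*, *Lamc1* and *Itga6*, where each gene overlapped with its neighbour except *Itgb5* with *Itgb3bp*. This order depends on the length used. By the longest coding transcript it was *Itgb1bp1*, *Lamb1*, *Itgb3bp*, *Itga6*, *Itga5*, *Itgb5* and *Lama2*, with *Lamc1* after them. The 12 genes that led by exon length held 79.4% of all counts of the 41 genes.

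**Figure D2:**
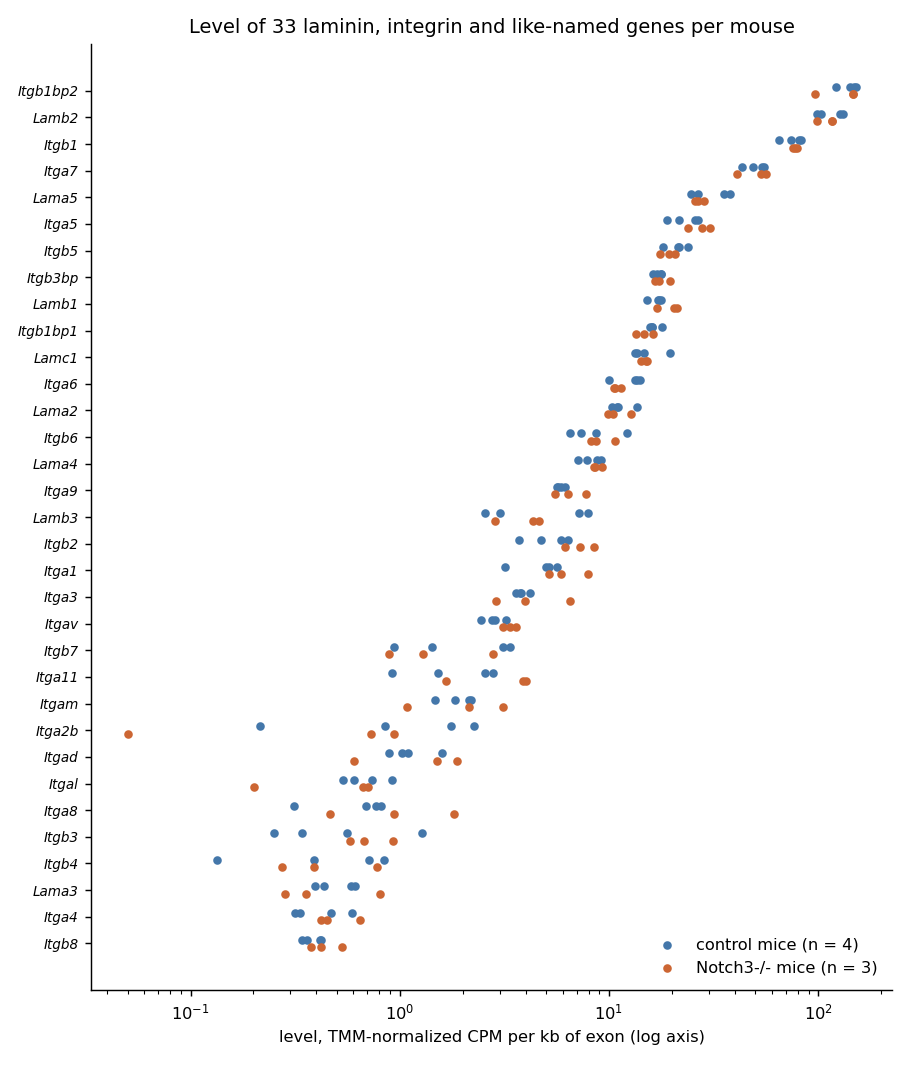
Level of 33 of the 34 genes tested in each mouse, in TMM-normalized CPM per kb of exon on a log axis, ordered by the mean of the control mice. Levels span from about those of Itgb8 to those of Itgb1bp2, while the points of the genotypes overlap in every row.

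Among laminin chain genes the highest level per length was that of *Lamb2*, a beta chain gene. *Lamb2* (chr9:108479736-108490530, plus strand in GRCm38) encodes the beta-2 chain of vascular and muscle basement membranes. It had 799, 599, 626 and 772 CPM in controls and 711, 599 and 709 in Notch3-/- mice, from 2310 to 3748 counts per mouse. The genotypes overlapped, and the log2 fold change was -0.054 (95% interval -0.35 to 0.24, FDR 0.921 in edgeR). *Lamb1*, for the beta-1 chain, had 172, 150.5, 169.6 and 175 CPM in control and 209.9, 169 and 203 in Notch3-/- mice. Notch3-/- mice 1 and 3 were above every control mouse and mouse 2 was among them, with a log2 fold change of 0.22 (95% interval -0.061 to 0.50, FDR 0.580 in edgeR). Without Notch3-/- mouse 2 it was 0.31 (edgeR FDR 0.636), with no overlap, as in 13.9% of all genes. Without Notch3-/- mouse 1 it was 0.16. Per length *Lamb2* was 6.82 ± 0.706 times *Lamb1* in control (SD, n = 4) and 5.67 ± 0.128 times in Notch3-/- mice (SD, n = 3), with every Notch3-/- mouse below the control mice. Of the 33 shares, sums and ratios computed over chain and subunit classes 3 had no overlap, against 8.53% of all genes. These were this ratio, the *Lamb1* share of the beta level and the *Itga6* share of the integrin alpha level. With the longest coding transcript the ratio in control mice was 4.30 ± 0.445. *Lamb3*, a chain of epithelial laminin, had 47.4, 52.7, 16.9 and 20.04 CPM in control and 30.6, 18.9 and 28.6 in Notch3-/- mice. Control mice 1 and 2, labelled X, lay above all 5 mice labelled k. Its log2 fold change was -0.40 in all mice and 0.49 in the mice labelled k (edgeR FDR 0.772 and 0.770), and it is named here after its values were seen. What set the labels apart was not given in the sources used here.

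The stretches before the RefSeq start sites of *Lamb2* and *Lamb1* are shown because they are the pair with the highest and the next level among the beta chains. RefSeq start-site windows (GRCm38.p6, from 250 bases before to 50 after the start) were at hand for 26 of the 41 genes. They were searched on both strands for 4 motifs. These were GTGGGAA and the TGGGAA within it, letters bound by the Notch partner RBPJ, TATAAA, the TATA box, and GGGCGG, the GC box. GTGGGAA stood in 0 of the 26 genes and in 6.38% of all 32851 windows, and TATAAA in 0 and 13.6%. TGGGAA stood in 4 genes, *Itga2b*, *Lama2*, *Lamb1* and *Lamb3*, and in 25.6% of all windows. GGGCGG stood in 11 genes, *Itga2*, *Itga3*, *Itga4*, *Itga5*, *Itgam*, *Itgav*, *Itgb1*, *Itgb5*, *Lama2*, *Lama5* and *Lamb1*, and in 35.7% of all windows. The RefSeq starts lie downstream of the GENCODE gene starts, so that 126 of the 250 bases for *Lamb2* and 59 of those for *Lamb1* are inside the GENCODE gene. The 250 bases before the RefSeq start of *Lamb2* (chr9:108479612-108479861, plus strand) hold none of the 4, and those of *Lamb1* (chr12:31265043-31265292, plus strand) hold TGGGAA at 2 places and GGGCGG, read on the other strand, at 2 places, in capitals.
Lamb2: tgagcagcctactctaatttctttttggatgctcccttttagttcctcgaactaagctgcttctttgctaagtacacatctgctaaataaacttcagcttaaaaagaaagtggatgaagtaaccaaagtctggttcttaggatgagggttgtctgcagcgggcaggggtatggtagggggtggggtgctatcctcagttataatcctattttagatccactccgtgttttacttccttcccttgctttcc
Lamb1: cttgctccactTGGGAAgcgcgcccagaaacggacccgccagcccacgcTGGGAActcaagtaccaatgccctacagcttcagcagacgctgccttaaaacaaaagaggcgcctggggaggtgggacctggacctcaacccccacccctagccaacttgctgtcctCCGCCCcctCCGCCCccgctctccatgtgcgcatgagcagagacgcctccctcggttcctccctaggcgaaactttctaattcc
A match describes letters, and binding was not measured.

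Of the alpha chain genes *Lama5* (chr2:180176373-180225859, minus strand), for the broadly expressed alpha-5 chain, led. It had 402, 302, 279.7 and 429 CPM in control and 293, 305 and 322 in Notch3-/- mice. Control mice 1 and 4 were the highest of all, the Notch3-/- mice lay close to control mice 2 and 3, and the log2 fold change was -0.20 (95% interval -0.56 to 0.15, FDR 0.699 in edgeR). Of the summed alpha chain level per length, *Lama5* made up 60.2% ± 4.59 (SD, n = 4) in control and 57.00% ± 3.08 (SD, n = 3) in Notch3-/- mice. With the longest coding transcript its share in control mice was 45.7% ± 4.72, still above the 29.00% of *Lama2*. *Lama2*, the chain of muscle basement membrane, came next with 22.5% ± 2.44 (SD, n = 4) in control and 23.4% ± 2.77 (SD, n = 3) in Notch3-/- mice and 536 to 907 counts per mouse. *Lama4*, the alpha-4 chain of vessel walls, held 16.3% ± 2.76 (SD, n = 4) in control and 18.5% ± 0.602 (SD, n = 3) in Notch3-/- mice with 289 to 546 counts. Their log2 fold changes were -0.050 and 0.090, and the sign of each changed in some of the other settings. *Lama3*, an epithelial chain, had 14 to 41 counts per mouse. *Lama1*, an early embryonic chain, had 0 counts in 6 mice and 5 in Notch3-/- mouse 2. A count of 0 in the control mice together allows up to 0.200 CPM of all counted reads, without TMM, taking 3 counts as the limit, for counting error only.

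The gamma chains were led by *Lamc1*, whose gamma-1 chain is shared by most laminins. *Lamc1* had 163, 112, 121 and 111 CPM in control and 125, 125 and 117 in Notch3-/- mice. Control mouse 1 was above all others, and the log2 fold change was -0.048 (95% interval -0.40 to 0.31, FDR 0.946 in edgeR). *Lamc3* was under the filter, with 5, 1, 3 and 8 counts in control and 2, 30 and 11 in Notch3-/- mice. Although the chains join in equal numbers, the summed beta level per length was 2.68 ± 0.0873 times the alpha level and 7.54 ± 0.916 times the gamma level in control mice (SD, n = 4). In Notch3-/- mice these ratios were 2.83 ± 0.228 and 7.54 ± 1.06 (SD, n = 3). With the longest coding transcript they were 2.38 ± 0.0722 and 7.61 ± 0.862 in control mice (SD, n = 4). Counts per gene do not show how evenly long transcripts were covered. RNA levels of chain genes do not give the amounts of protein.

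**Figure D3:**
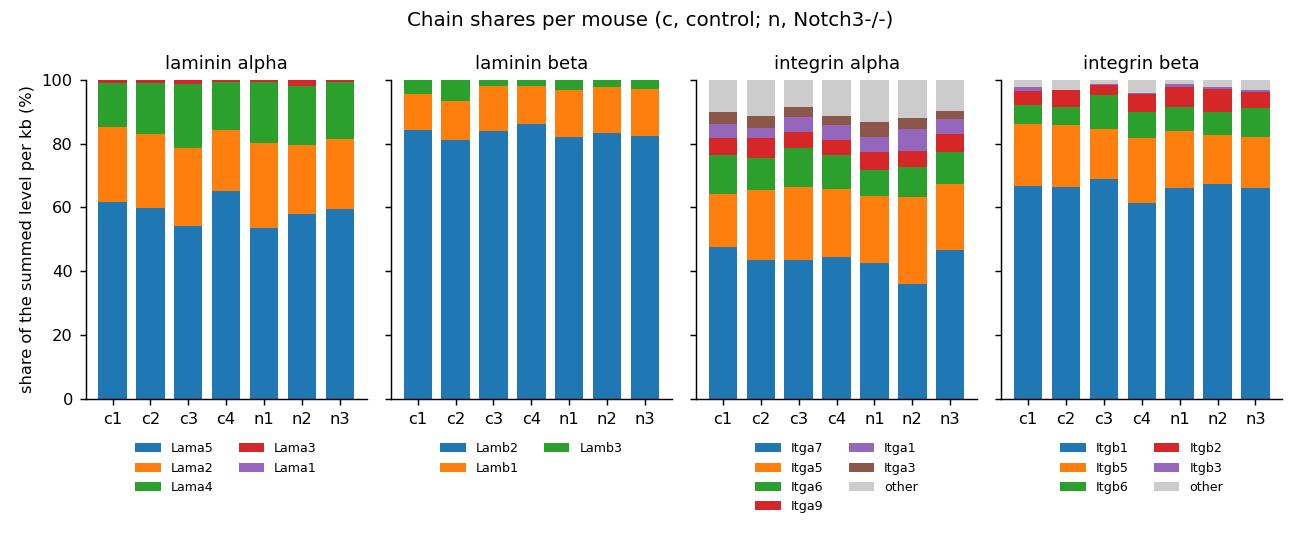
Share of each gene in the summed level per kb of exon of its class (laminin alpha and beta chains, integrin alpha and beta subunits), in percent, for control mice (c1 to c4) and Notch3-/- mice (n1 to n3). The same gene leads each class in all 7 mice: Lama5, Lamb2, Itga7 and Itgb1.

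The leading integrin pair was that of the muscle laminin receptor. *Itga7* (chr10:128933818-128958282, plus strand) had 438, 349, 396 and 445 CPM in control and 455, 329.6 and 429.6 in Notch3-/- mice. Notch3-/- mouse 2 was the lowest and mouse 1 the highest of all 7, and the log2 fold change was -0.0079 (95% interval -0.32 to 0.31, FDR 0.990 in edgeR). *Itgb1* (chr8:128685654-128733200, plus strand), the partner of most alpha subunits in the heart, had 303, 337, 329 and 267 CPM in control and 311, 316 and 323 in Notch3-/- mice. The Notch3-/- mice lay within the control range, with a log2 fold change of 0.037 (95% interval -0.21 to 0.29, FDR 0.942 in edgeR). *Itga7* held 44.7% ± 1.87 (SD, n = 4) in control and 41.8% ± 5.24 (SD, n = 3) in Notch3-/- mice of the integrin alpha level per length, and *Itgb1* 65.96% ± 3.18 (SD, n = 4) in control and 66.6% ± 0.803 (SD, n = 3) in Notch3-/- mice of the beta level. *Itga6*, for another laminin-binding subunit, had 127, 90.4, 122 and 119.6 CPM in control and 96.2, 95.7 and 103 in Notch3-/- mice. Control mouse 2 was the lowest of all and the other 3 control mice lay above every Notch3-/- mouse, with a log2 fold change of -0.22 (95% interval -0.56 to 0.11, FDR 0.636 in edgeR). *Itga3*, the third laminin-binding subunit, had 64 to 136 counts per mouse and a log2 fold change of 0.21, which was -0.16 without Notch3-/- mouse 1 and -0.41 without Notch3-/- mice 1 and 2.

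*Itga5*, the fibronectin receptor subunit, had 93.8, 106, 127 and 131 CPM in control and 137, 151 and 118 in Notch3-/- mice. Notch3-/- mice 1 and 2 were above every control mouse and mouse 3 was among them, and the log2 fold change was 0.24 (95% interval -0.12 to 0.59, FDR 0.641 in edgeR). It was 0.058 in mice labelled k, 0.15 without Notch3-/- mouse 2, 0.15 without control mouse 1 and 0.32 without Notch3-/- mouse 3. With Notch3-/- mouse 3 as the only Notch3-/- mouse it was 0.037. *Itgb5*, a vitronectin receptor subunit that pairs with alpha-v, had 76.7, 84.9, 64.7 and 76.1 CPM in control and 73.2, 62.05 and 68.6 in Notch3-/- mice. The genotypes overlapped, with a log2 fold change of -0.15 (95% interval -0.47 to 0.16, FDR 0.747 in edgeR). Of the other genes of these classes *Itgav* had 80 to 178 counts per mouse, *Itga9* 132 to 259, *Itga4* 14 to 43, *Itga2b* 1 to 37, *Itgb3* 6 to 23, *Itgb4* 4 to 29, *Itgb6* 141 to 401, *Itgb7* 9 to 41 and *Itgb8* 14 to 28. The leukocyte integrins were low, with 26 to 57 counts for *Itgam*, 12 to 36 for *Itgad* and 7 to 23 for *Itgal*. Of the integrin genes that passed the filter *Itga2b*, *Itgal* and *Itgb7* had the lowest log2 fold changes, named here after their values were seen. For *Itga2b* it was -1.05 (95% interval -2.85 to 0.74, FDR 0.687 in edgeR), -0.56 without Notch3-/- mouse 1 and -1.58 without Notch3-/- mouse 3. For *Itgal* and *Itgb7* it was -0.43 and -0.39, and the genotypes overlapped in each of these genes.

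Under the filter, *Itgax* had 0, 9, 5 and 7 counts in control and 8, 20 and 4 in Notch3-/- mice. *Itgae*, a subunit of lymphocytes in epithelia, had 1, 6, 1 and 3 counts in control and 19, 6 and 13 in Notch3-/- mice. In DESeq2 its log2 fold change was 2.03 (adjusted p 0.363). *Itga10* had 5, 6, 3 and 4 counts in control and 5, 3 and 2 in Notch3-/- mice. It shares 1739 exon bases on its strand with *Gm42957*, which had 722 counts, so reads of the pair may have been counted on either. *Itga2* had 5 counts in all mice together. *Itgb2l* had 6, all in Notch3-/- mouse 2.

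The 3 genes that are not subunits were not called either. *Itgb1bp2* had 266, 218, 257 and 273 CPM in control and 263, 173 and 265 in Notch3-/- mice. Notch3-/- mouse 2 was below all others, and the log2 fold change was -0.12 (95% interval -0.49 to 0.25, FDR 0.856 in edgeR). *Itgb1bp1*, for a regulator that binds the integrin beta-1 tail, had 63.6, 55.8, 56.7 and 56.8 CPM in control and 47.8, 52.2 and 57.7 in Notch3-/- mice. The genotypes overlapped in 1 mouse, Notch3-/- mouse 3, with a log2 fold change of -0.15 (95% interval -0.44 to 0.15, FDR 0.747 in edgeR). *Itgb3bp*, for a centromere protein, had 79.03, 74.8, 82.3 and 82.2 CPM in control and 77.1, 80.3 and 90.8 in Notch3-/- mice. The genotypes overlapped, with a log2 fold change of 0.057 (95% interval -0.23 to 0.34, FDR 0.914 in edgeR). *Itgb3bp* shares 398 exon bases with *Pgm1* on the other strand, and whether the counting used the strand is not given in the sources used here.

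Of the integrin genes that passed the filter, those with the highest log2 fold changes were *Itga11*, *Itga8*, *Itgb2* and *Itga1*, singled out after their values were seen. The genes with the lowest are named above. *Itgb2*, the leukocyte beta subunit, had 14.5, 19.4, 11.3 and 18.04 CPM in control and 22.1, 25.9 and 18.9 in Notch3-/- mice, with a log2 fold change of 0.50 (95% interval -0.040 to 1.03, FDR 0.503 in edgeR). *Itga1*, a collagen receptor subunit, had 92.9, 59.4, 95.98 and 106 CPM in control and 110.1, 147 and 96.3 in Notch3-/- mice, with a log2 fold change of 0.42 (95% interval -0.070 to 0.90, FDR 0.541 in edgeR). In both genes Notch3-/- mouse 2 was the highest of all. *Itga11*, a collagen receptor subunit of fibroblasts, had 13.2, 7.80, 4.71 and 14.4 CPM in control and 19.9, 20.6 and 8.51 in Notch3-/- mice, with a log2 fold change of 0.72 (95% interval -0.23 to 1.68, FDR 0.592 in edgeR). *Itga8*, a subunit of mesenchymal cells, had 2.30, 5.06, 5.65 and 6.01 CPM in control and 13.4, 6.94 and 3.40 in Notch3-/- mice, with a log2 fold change of 0.70 (95% interval -0.39 to 1.78, FDR 0.652 in edgeR). In all 4 genes Notch3-/- mice 1 and 2 lay above every control mouse and Notch3-/- mouse 3 lay among them, an order that *Itga5* and *Itgav* also showed. Of all genes, 2295 of the 15008 tested without Notch3-/- mouse 3 had mice 1 and 2 above every control mouse, wherever mouse 3 lay. Without Notch3-/- mouse 3, 3 of the 35 genes tested had an unadjusted p below 0.05 in edgeR, against 16.3% of all genes. These 3, *Itga1*, *Itga11* and *Itga8*, are among the 4 genes singled out above. Of the 35 genes 0 were called, against 6.24% of all genes. Of the 35 genes then tested 7 did not overlap (these 4, *Itga5*, *Itgav* and *Itgb1bp1*), against 26.0% of all genes. The log2 fold changes of *Itga1*, *Itga11* and *Itga8* were then 0.54, 1.04 and 1.06, with edgeR FDR of 0.283, 0.219 and 0.260. Leaving out other mice lowered some of these values. Without Notch3-/- mouse 1 *Itga11* was 0.56 and *Itga8* 0.10, and without Notch3-/- mouse 2 *Itga1* was 0.23 and *Itga11* 0.51. With Notch3-/- mouse 3 as the only Notch3-/- mouse *Itga1* was 0.13, *Itgb2* 0.26, *Itga11* -0.20 and *Itga8* -0.49. In technical library 1 alone *Itga1* was 0.31, *Itga11* 0.83 and *Itgb2* 0.40, and in library 2 these were 0.89, 0.97 and 0.20. In technical library 3 alone *Itga1* was 0.080, *Itga11* 0.37, *Itgb2* 0.96 and *Itga8* 0.11. Genotypes did not overlap for *Itga1* in library 2 and *Itgb2* in library 3 (8.84% and 7.61% of all genes). Both had an unadjusted p below 0.05 in edgeR (10.4% and 8.83% of all genes), and neither was called.

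Hepatocyte marker genes were high in the same mice. The 38 hepatocyte genes listed, led by *Trf*, summed to 229, 396, 136 and 153 CPM in controls and 12389, 23979.7 and 363 in Notch3-/- mice. Of the 33 that passed the filter all 33 were higher at an unadjusted p below 0.05 (7.34% of all genes) and 0 were called (0.00698% of all genes). In 13 the genotypes did not overlap (8.53% of all genes), and none of the 38 was at 0 in all mice. Lists written after these values were seen gave 7.57, 5.48, 7.29 and 8.68 CPM in control and 54.9, 72.1 and 13.99 in Notch3-/- mice for 4 Kupffer cell genes led by *Clec4f*. They gave 13.8, 18.1, 8.23 and 13.7 CPM in control and 52.5, 76.1 and 15.7 in Notch3-/- mice for 4 genes of liver sinusoidal endothelium led by *Fcna*. For 6 hepatic stellate cell genes led by *Ecm1* the sums were 176, 146, 123 and 126 CPM in control and 167, 267 and 153 in Notch3-/- mice. Their part in the values of *Itgb2*, *Itga1*, *Itga11* and *Itga8* was not tested. In bulk tissue, fewer cells of a type and less RNA per cell cannot be told apart.

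**Figure D4:**
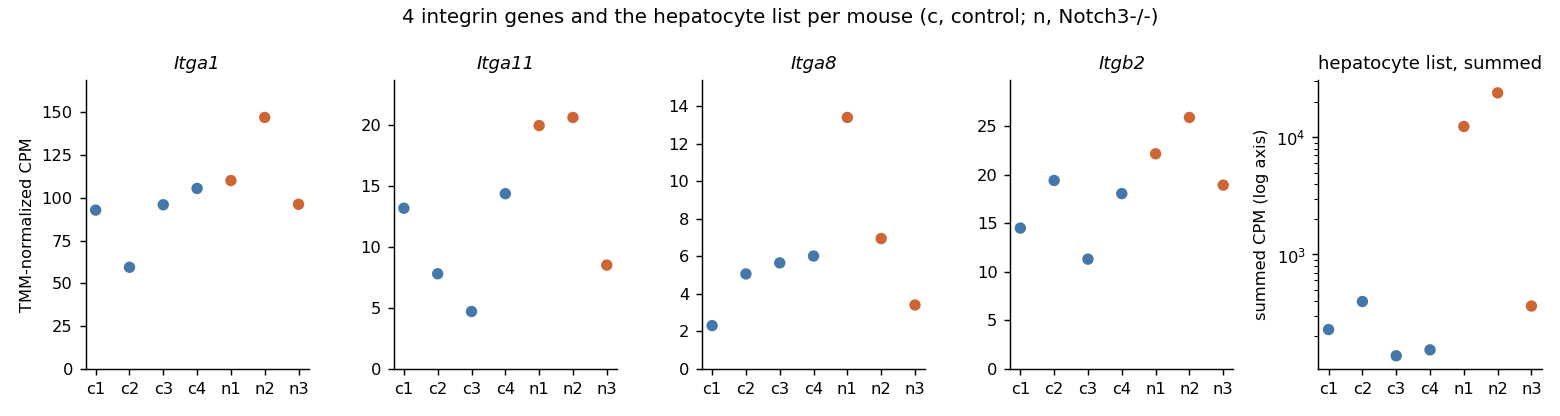
CPM of Itga1, Itga11, Itga8 and Itgb2 and the summed CPM of the hepatocyte list (log axis) in control mice (c1 to c4) and Notch3-/- mice (n1 to n3). Notch3-/- mice 1 and 2 lie above the control mice in each panel, and Notch3-/- mouse 3 lies among them.

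The partners of laminins and integrins were read in the same way. Of other basement membrane genes 20 of 22 genes were tested, 0 were called, 4 were higher and 0 lower at an unadjusted p below 0.05 (7.34% and 3.05% of all genes), and the median log2 fold change was 0.18. In 2 of the 20 the genotypes did not overlap (8.53% of all genes). *Col18a1*, for a collagen that liver also makes, had 11.9, 20.7, 7.29 and 14.4 CPM in control and 109, 369 and 21.2 in Notch3-/- mice (log2 fold change 3.61, SE 0.76, edgeR FDR 0.133). *Col4a1*, for the main basement membrane collagen, had 261, 254, 355 and 378 CPM in control and 425, 425 and 492 in Notch3-/- mice (log2 fold change 0.52, SE 0.16, edgeR FDR 0.280), so that all 3 Notch3-/- mice were above the control mice and mouse 3 was the highest. *Fbln2*, for fibulin-2, had 220.0, 192, 215 and 197 CPM in control and 217, 286 and 313 in Notch3-/- mice (log2 fold change 0.40, SE 0.14, edgeR FDR 0.356). Of other integrin ligands 21 of 25 genes were tested, 0 were called, 7 were higher and 2 lower at an unadjusted p below 0.05 (7.34% and 3.05% of all genes), and the median log2 fold change was 0.45. In 4 of the 21 the genotypes did not overlap (8.53% of all genes). The smallest p were those of the fibrinogen genes *Fgg*, *Fgb* and *Fga*, which also stand in the hepatocyte list. *Fga* had 1.65, 7.38, 0.471 and 1.34 CPM in control and 442, 935 and 3.97 in Notch3-/- mice (log2 fold change 7.28, SE 1.41, edgeR FDR 0.118). For *Fgb* the values were 0, 4.64, 0.235 and 0.334 CPM in control and 307, 723 and 5.29 in Notch3-/- mice (log2 fold change 7.80, SE 1.45, edgeR FDR 0.118). In *Fgg* they were 1.98, 3.37, 0.471 and 0 CPM in control and 279.8, 683 and 3.78 in Notch3-/- mice (log2 fold change 7.66, SE 1.42, edgeR FDR 0.118). Values were thus far higher in Notch3-/- mice 1 and 2 than in any other mouse, as for the hepatocyte list. The part of liver cells in the values of *Col18a1* and of these fibrinogen genes was not tested.

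Of other laminin receptors 17 of 17 genes were tested, 0 were called, 3 were higher and 1 lower at an unadjusted p below 0.05 (7.34% and 3.05% of all genes), and the median log2 fold change was -0.090. In 1 of the 17 the genotypes did not overlap (8.53% of all genes). The syndecans *Sdc1*, *Sdc2* and *Sdc4*, cell surface proteoglycans, had the smallest p. *Sdc1* had 15.1, 27.6, 16.00 and 15.4 CPM in control and 101, 323 and 22.9 in Notch3-/- mice (log2 fold change 2.99, SE 0.68, edgeR FDR 0.165). *Sdc2* had 79.03, 68.9, 80.5 and 73.8 CPM in control and 116, 168 and 98.3 in Notch3-/- mice (log2 fold change 0.75, SE 0.18, edgeR FDR 0.176), with every Notch3-/- mouse above the control mice. *Sdc4* had 66.2, 58.8, 72.5 and 70.8 CPM in control and 137, 324 and 51.1 in Notch3-/- mice (log2 fold change 1.35, SE 0.46, edgeR FDR 0.349). Like the hepatocyte sum, all 3 were highest in Notch3-/- mouse 2 and next in Notch3-/- mouse 1. Unlike that sum, *Sdc2* was above every control mouse in Notch3-/- mouse 3 too. A link of these genes to the hepatocyte sum was not tested. Of the integrin adhesion complex 37 of 38 genes were tested, 0 were called, 2 were higher and 1 lower at an unadjusted p below 0.05 (7.34% and 3.05% of all genes), and the median log2 fold change was 0.030. In 2 of the 37 the genotypes did not overlap (8.53% of all genes). *Ptk2b*, for a kinase related to focal adhesion kinase, had 10.9, 11.4, 11.8 and 16.7 CPM in control and 19.9, 51.7 and 13.8 in Notch3-/- mice (log2 fold change 1.17, SE 0.41, edgeR FDR 0.357). *Cd151*, for a tetraspanin that binds laminin-binding integrins, had 146, 138.25, 169.6 and 152 CPM in control and 117, 97.4 and 138.04 in Notch3-/- mice (log2 fold change -0.37, SE 0.15, edgeR FDR 0.448), with every Notch3-/- mouse below the control mice. None of these was called.

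Markers of the cell types that carry these genes were summed per mouse, with mice in the order of their numbers. Cardiomyocyte markers (11 of 11 genes tested, most abundant *Ttn*) summed to 32333, 23484, 27554 and 31293 CPM in control and 32167, 21674 and 23241 in Notch3-/- mice. Those of endothelial cells (10 of 10 genes tested, most abundant *Eng*) summed to 1801, 1439, 1642 and 2013 CPM in control and 1820.5, 1908 and 1822 in Notch3-/- mice. Defining cells of the labelled heart were thus present in all mice, while in Notch3-/- mouse 2 the hepatocyte sum given above was larger than the cardiomyocyte sum and in Notch3-/- mouse 1 it was below it. Vascular smooth muscle markers (7 of 9 genes tested, most abundant *Smtn*) summed to 1216, 962, 989 and 1101 CPM in control and 1173, 917 and 891 in Notch3-/- mice. Pericyte markers (8 of 8 genes tested, most abundant *Rgs5*) summed to 1347, 1215, 1256 and 1316 CPM in control and 1195, 1030.4 and 1062 in Notch3-/- mice, with every Notch3-/- mouse below the control mice. Of the 8 genes 6 had a log2 fold change below 0 and 2 above. In 3 the genotypes did not overlap (8.53% of all genes), and 0 were called (0.00698% of all genes). Smooth muscle cells and pericytes are cells in which *Notch3* is known to be expressed. Fibroblast markers (11 of 11 genes tested, most abundant *Gsn*) summed to 3263, 2783, 2550.4 and 2635 CPM in control and 2808, 2655 and 2961 in Notch3-/- mice. Macrophage markers (11 of 11 genes tested, most abundant *Lyz2*) summed to 585, 519, 638 and 588 CPM in control and 618, 597 and 676 in Notch3-/- mice. Markers of other leukocytes had lower sums. Lymphocyte markers (2 of 12 genes tested, most abundant *Ptprc*) summed to 38.2, 21.3, 30.8 and 42.4 CPM in control and 41.5, 30.5 and 30.3 in Notch3-/- mice. Neutrophil markers (2 of 9 genes tested, most abundant *Csf3r*) summed to 7.57, 4.21, 8.00 and 12.02 CPM in control and 10.1, 8.62 and 8.89 in Notch3-/- mice, and *Ly6g* and *Camp* were at 0 in all mice.

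Markers of platelets and megakaryocytes (2 of 7 genes tested, most abundant *Pf4*) summed to 33.6, 24.4, 28.7 and 32.4 CPM in control and 20.5, 21.5 and 21.4 in Notch3-/- mice, with every Notch3-/- mouse below the control mice. Taken singly, 1 of the 2 genes tested had no overlap (8.53% of all genes). Erythroid markers (5 of 7 genes tested, most abundant *Hbb-bs*) summed to 470.2, 355, 354 and 549 CPM in control and 304, 478 and 206 in Notch3-/- mice. Blood cells carry *Itga2b*, *Itgb3* and *Itgb2*. Schwann cell markers (5 of 8 genes tested, most abundant *Cdh19*) summed to 87.6, 64.1, 52.9 and 59.4 CPM in control and 39.9, 35.1 and 47.1 in Notch3-/- mice, with every Notch3-/- mouse below the control mice. Taken singly, 2 of the 5 genes tested had no overlap. Adipocyte markers (1 of 7 genes tested, most abundant *Fabp4*) summed to 309, 207, 279 and 245 CPM in control and 220.0, 230.3 and 224 in Notch3-/- mice. Epithelial integrins and laminins are made by the cells of the next list, of which *Krt8* and *Krt18* are also expressed by hepatocytes. Mesothelium and epithelium markers (6 of 8 genes tested, most abundant *Krt8*) summed to 14.8, 17.5, 47.3 and 53.1 CPM in control and 90.5, 321 and 103 in Notch3-/- mice, with every Notch3-/- mouse above the control mice. Taken singly, 1 of the 6 genes tested had no overlap. The part of these differences in the values of laminin and integrin genes was not tested.

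Precision followed depth. Among the 12 genes with the highest levels, 170 to 3748 counts per mouse stood behind each value, and the 95% intervals of their fold changes lay between 0.679 and 1.51. The SD of log2(CPM + 1) among the 3 technical libraries of a mouse had a median of 0.245 for these genes and 0.694 for the other 22. For 11 of the latter the 95% interval reached past a 2-fold change, so a 2-fold difference lies within the interval of these genes.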

How the data were processed

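Per the labels, RNA from frozen left ventricle was reverse transcribed, amplified by PCR, cut with Tn5 and sequenced in single reads. The deposited values are counts of reads per Ensembl gene in each library, not normalized by the authors. The submitters' processing notes name mm10 and CASAVA; aligner, counter and strand use are not given in the sources used here. The 92 spike-in lines (34 counts) were left out. Technical libraries were summed per mouse and tested in edgeR 4.0.16 (R 4.3.3; filterByExpr, TMM, quasi-likelihood F-test, genotype as the only term), with DESeq2 1.42.0 and limma 3.58.1 as alternatives. Library sizes were those of the genes that passed the filter. This choice was made after a fit with library sizes over all genes had been seen, in which 1068 genes were higher and 403 lower at an unadjusted p below 0.05, against 1051 and 437 with the sizes used. Exon lengths and positions are from GENCODE vM21 (GRCm38). Members, lists and tests were chosen with earlier results of these data known. Values per mouse are given for the 12 tested genes with the highest level per length in control mice and for any with an unadjusted p below 0.05 or without overlap; of each pathway list the 3 genes with the smallest p are named. Of the genes these rules and the member list cover, 2 are not reported here, though sums and counts include them. Reads carried no molecular identifiers, so limits cover counting error only.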

Additional observations from a re-analysis of the deposited data

Results flagged for a closer look

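In 3 of 67 values examined over the 4 control mice, 1 mouse stood apart from the other 3, measured as its gap to the nearest mouse over the whole range. Chance gives about 1 in 20 such cases. *Itgb1bp1* had 63.6 CPM in control mouse 1 and 55.8 to 56.8 in the others. *Itga1* held 3.23% of the integrin alpha level per length in control mouse 2 and 4.38% to 4.59% in the others. The summed laminin beta level was 8.89 times the gamma level in control mouse 4 and 6.92 to 7.25 times in the others. Groups of 3 mice were not examined in this way.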

How the results depend on the processing

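No laminin or integrin gene was called in edgeR with any other normalization, filter, left-out mouse, label or technical library, in DESeq2, in limma-voom or without a fold threshold (0 in each). In several of these settings almost no gene of any kind was called. Over all genes 0 were called in mice labelled k and 1 with RLE factors. The share called was 6.24% without Notch3-/- mouse 3, 3.43% in DESeq2 and 2.22% with every gene with a count. It was 0.427%, 0.339% and 0.651% in technical libraries 1 to 3 and 0.377% in limma-voom on 21 libraries. At an unadjusted p below 0.05 the number was 1 in DESeq2 (6.70% of all genes), 1 with every gene with a count (8.42%), 1 in each technical library alone (6.61%, 10.4% and 8.83% for libraries 1 to 3) and 0 to 3 with a mouse left out (3 without Notch3-/- mouse 3, 2 without Notch3-/- mouse 2 and 2 without control mouse 2, against 16.3%, 6.51% and 9.48% of all genes). The number without overlap was 5 in mice labelled k (23.5% of all genes), 1 in each technical library alone (6.16%, 8.84% and 7.61%) and 0 to 7 with a mouse left out (7 of 35 without Notch3-/- mouse 3, 4 of 35 without Notch3-/- mouse 2 and 3 of 34 without control mouse 2, against 26.0%, 13.9% and 14.7% of all genes). The median log2 fold change of laminin genes was -0.28 in technical library 1 and 0.13 in library 2, and that of integrin genes -0.017 in library 1. With a mouse left out these medians were -0.11 to 0.016 and 0.078 to 0.18. Alternatives added after the data were seen were library sizes over all genes, which left 0 in each count, and leaving out Notch3-/- mice 1 and 2 together, with 1 of 36 at an unadjusted p below 0.05 (5.16% of all genes), 8 without overlap (41.1% of all genes) and an integrin median of 0.067; the lone Notch3-/- mouse is there assumed to vary like the control mice. With the longest coding transcript, also added, the shares in control mice were 53.9% for *Itga7*, 45.7% for *Lama5* and 77.4% for *Lamb2*.

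Log2 fold changes near 0 changed sign in places, with no call. In technical library 1 they were -0.19 for *Itgb1*, 0.073 for *Itgb1bp1*, 0.17 for *Itgb1bp2*, -0.19 for *Itgb3bp* and -0.071 for *Lamb1*. In library 2 they were 0.19 for *Itga7*, 0.0076 for *Lama5*, 0.11 for *Lamb2* and 0.13 for *Lamc1*, and in library 3 0.057 for *Itga7*, 0.036 for *Itgb5* and 0.044 for *Lamc1*. *Lamc1* was 0.074 in mice labelled k. *Lama2* was 0.17 in library 2, 0.0052 in mice labelled k, 0.022 without Notch3-/- mouse 2 and 0.041 without control mouse 1, and *Lama4* was -0.33 in library 1 and -0.038 in mice labelled k. Without Notch3-/- mice 1 and 2 *Itga7* was 0.080, *Itgb1bp2* 0.065 and *Lamb2* 0.022. With a mouse left out they ranged from -0.099 to 0.12 for *Itga7*, -0.027 to 0.076 for *Itgb1*, -0.22 to 0.061 for *Itgb1bp2*, -0.022 to 0.11 for *Itgb3bp*, -0.13 to 0.023 for *Lamb2* and -0.11 to 0.094 for *Lamc1*. The cause of these changes was not tested.

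In limma-voom on 21 libraries *Itga7* was 0.0057. With the technical replicate number as a block it was 0.0054, 0 genes of the 34 were called, and the laminin and integrin medians were -0.074 and 0.11. Deviations of same-numbered libraries of different mice had a median correlation of -0.0149 (-0.207 to 0.128). For libraries of different numbers and mice the median was 0.0037. Counting error is part of these deviations, and whether same-numbered libraries share a batch was not tested. Depth limits the genes with few counts most.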
